A study of Caenorhabditis elegans with 9 samples.

Results

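In second-stage larvae of Caenorhabditis elegans, 121 of 20389 listed genes were high in the hsf-1(ok600) mutant and low both in wild type and in a line with an hsf-1::gfp transgene. The members were picked by level. A gene had to have an accepted estimate in all 3 genotypes and an FPKM (fragments per kilobase of transcript, scaled to the library's total) of at least 10 in the mutant. Its FPKM in wild type and in the transgenic line each had to be at most 0.25 of the mutant value, a 4-fold gap. The set holds the C-type lectin clec-60, the tubulin tbb-6, the hypoxia genes nhr-57 and rhy-1, 5 F-box genes of the fbxa family, and 65 genes that have a sequence name only. Since these values made the choice, the levels below describe the members and do not test them.

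HSF-1 is the heat shock transcription factor of the worm. It binds promoters of chaperone genes under heat and other protein damage, and it is also needed for larval development without heat. Larvae that lack it stop growing early, and worms use separate sets of inducible genes against heat, hypoxia, mitochondrial disturbance and infection, several of which are represented below.

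The study sequenced RNA of whole larvae in 9 libraries, 3 for each genotype. Wild type was strain N2. The mutant larvae were homozygous for the deletion allele hsf-1(ok600), and were collected as the GFP-negative young of strain OG576, which carries ok600 over the balancer hT2 of chromosomes I and III, so their mothers were heterozygous. The transgenic line, AM1061, carries the same deletion together with rmSi1[hsf-1::gfp], so mutant and line share ok600. For a library, 500 larvae from several collections were pooled at 30 h after eggs were laid within 2 h, and the stated temperature was 20 °C. Nothing in the labels says that libraries of 1 genotype were separate cultures, so the deposited p-values may measure technical spread.

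The files hold 1 FPKM per gene and genotype, combined by the authors from 3 libraries, with a lower and an upper bound whose level is not stated. Bounds are given in parentheses after each value, and no spread between libraries or sequencing depth can be read from these values. The hsf-1 transcript stood at 25.3 FPKM in wild type (7.62 to 43.1), 21.4 in the mutant (6.52 to 36.4) and 69.3 in the line (29.4 to 109.1), and the labels do not say whether the counted transcript includes the deleted stretch. Tissue markers moved in part with the genotypes: the summed FPKM of 9 intestinal markers ran 4003, 2462 and 4714 in the order wild type, mutant, line, and that of 6 neuronal markers was 744, 1124 and 781. The 5 hypodermal markers summed to 1849, 2534 and 2225 FPKM. Single genes carried much of these sums: intestinal asp-1 stood at 2003, 852 and 2203 FPKM and neuronal snb-1 at 303, 624 and 421 in the same order. The intestinal markers elt-2 (17.9, 22.5 and 11.1 FPKM) and ifb-2 (124.9, 187.6 and 145 FPKM) were highest in the mutant. By the deposited calls of the authors, 2 intestinal markers were called lower and 1 neuronal and 1 hypodermal marker were called higher. In RNA of whole larvae, fewer cells of a type and less RNA per cell cannot be told apart, and the part of these shifts in the members' levels was not tested.

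The median FPKM of the 121 members was 25.1 in the mutant, against 1.62 in wild type and 2.11 in the line. The mutant values ran from 10.1 to 1050.2 FPKM, with 15 members at 100 or more, 27 at 50 or more and 69 at 20 or more. Typical members were thus expressed at a moderate level in the mutant and at a low level elsewhere. The median ratio of mutant to wild type was 10.04 over the 105 members with a wild-type value above 0, and that of mutant to line was 11.07 over 112 members. In wild type 16 members were listed at 0, in the line 9, and 8 in both.

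**Figure D1:**
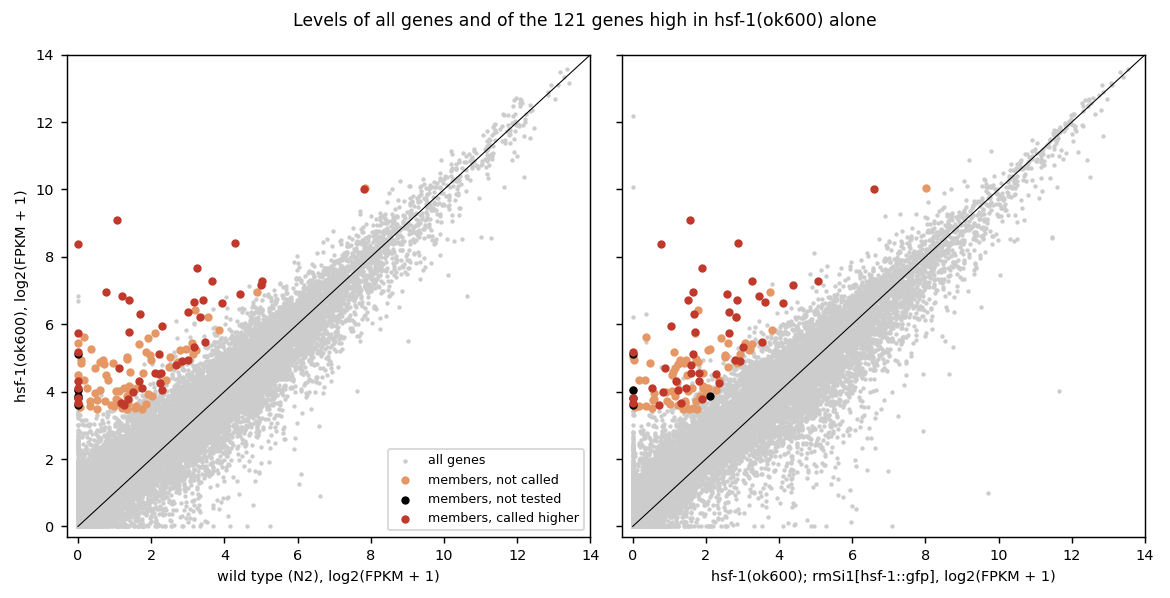
FPKM of every gene in the mutant (vertical axis) against wild type (left) and the transgenic line (right), as log2(FPKM + 1), with the 121 members coloured by the authors' call in the mutant against wild type and a line of equal level. The members lie above the line of equal level in both panels, as the rule fixes, mostly at a mutant FPKM under 100.

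Members just inside the ratio limit were gem-4, atg-13 and scl-24, with the higher of their wild-type and line values at 0.249, 0.248 and 0.247 of the mutant value. Just outside it lay K05F1.10, fdr-1 and pitr-5 at 0.251, 0.252 and 0.253. At the minimum level, bath-28, ceh-74 and lec-7 were inside with mutant values of 10.1, 10.3 and 10.3 FPKM. C54D10.13, M199.8 and kgb-2 were outside with 9.92, 9.84 and 9.80 FPKM. In 53 members neither reference value was above 0.1 of the mutant value, while in 30 the higher one was over 0.2.

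The same rule with the genotypes exchanged found 85 genes high in wild type alone and 166 high in the transgenic line alone. The limit against wild type was met by 234 genes, of which 113 did not meet it against the line, and the limit against the line by 221 genes, of which 100 did not meet it against wild type. The reverse pattern, low in the mutant and at least 10 FPKM in both other genotypes with the same 4-fold gap, held for 39 genes. A pattern of 1 genotype standing alone was thus found for each of the 3 genotypes, and how many such genes spread between libraries alone would give cannot be read from 1 value per genotype.

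In the authors' deposited table, 44 of 116 members tested were called higher in the mutant than in wild type at a q of at most 0.05, 72 were not called, and 5 were not tested. Over all 12615 genes tested, 2.93% were called higher, and this share is given as background only, because the rule used the same contrast. At an unadjusted p of at most 0.05, 77 members passed. No share over all genes stands beside that count and the rule used the same contrast, so nothing is read from it. The mutant interval lay wholly above the wild-type interval in 47 members, above the line's interval in 54 and above both in 42. Among all genes that reached 1 FPKM in a genotype compared, members included, the same held for 82 of 13182 against wild type (0.622%), 90 of 13071 against the line (0.689%) and 46 of 13380 against both (0.344%). In 62 members it overlapped both. In all, 24 members were both called and apart from both other intervals.

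A large ratio did not go with a call in many members. Of 45 members that were over 20-fold above wild type or had wild type listed at 0, 15 were called and 25 were not. In 18 of those 25 the mutant interval nevertheless lay above the wild-type one. By wild-type level, 8 of 40 members with a wild-type FPKM under 1 were called, 19 of 52 members from 1 to 5, and 17 of 29 at 5 or more. The called members under 1 were tbb-6 and genes listed at 0 in wild type: B0563.9, Y38H6A.5, nspe-6, Y47D7A.15, F21C10.11, spp-9 and spp-21. The 5 members not tested are listed at 0 there too and are among the 40. Calls under 1 FPKM thus fell mainly on genes with a listed 0, and the bins show no simple trend with level. Deposited bounds of the mutant values spanned, as a half-width, a median of 69.2% of the value in called members and 82.1% in members not called, against 71.4% in the 7175 other genes with at least 10 FPKM in the mutant.

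The mutant FPKM of 9 members lay above its own deposited upper bound, 7.44% of members against 25 of 7175 other genes at that level, or 0.348%. The rule picked members by this same mutant value, so nothing is read from the difference of these shares. W02A2.9 is the clearest case, listed at 1050.2 FPKM in the mutant with bounds of 35.5 to 342, and its wild-type value of 230.0 and its line value of 258 lay above their bounds too. The others were B0563.9, dct-7, Y38H6A.5, F08A7.1, Y44A6D.1, C36A4.10, F39E9.14 and K09H11.10. In the files 6 of the 9 span under 500 bases of genome. Of the 9, 2 were called, 5 were not called and 2 were not tested, and their levels are uncertain wherever they are named.

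**Figure D2:**
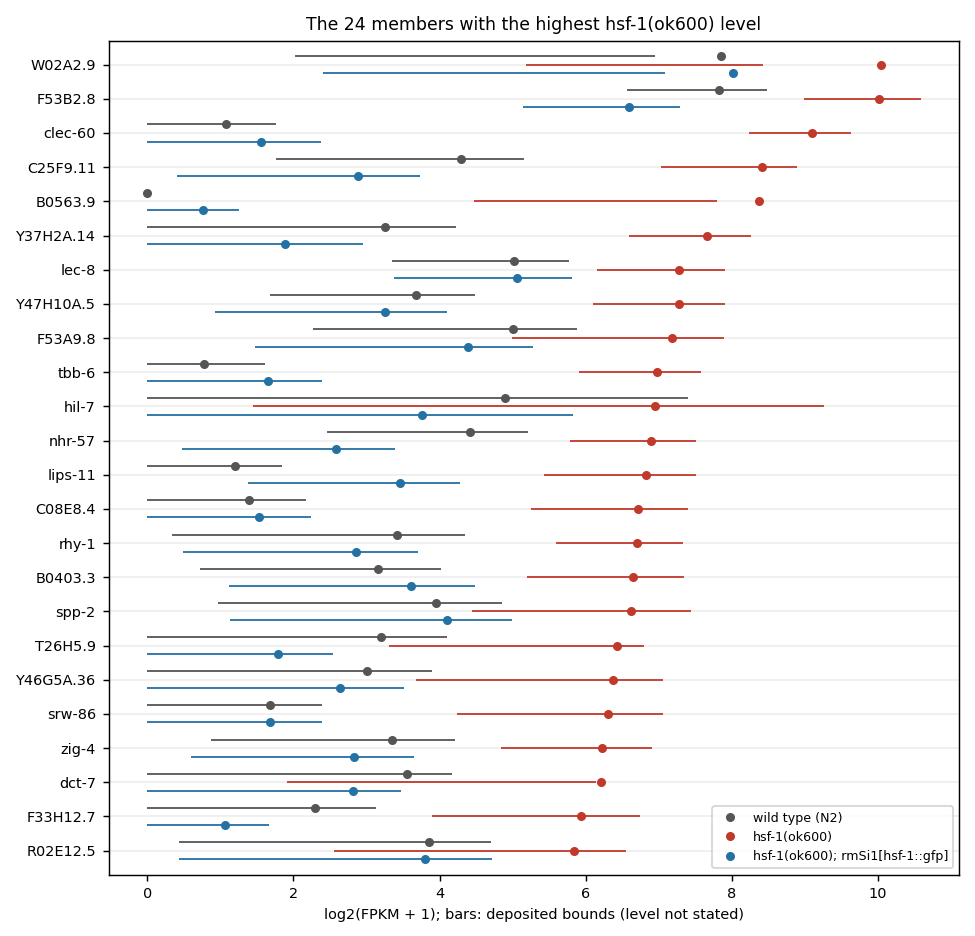
The 24 members with the highest mutant FPKM, as log2(FPKM + 1), with points for the 3 genotypes and bars for the deposited bounds, whose level is not stated. The mutant point of W02A2.9, B0563.9 and dct-7 lies beyond its own bar, while for F53B2.8, clec-60 and tbb-6 the mutant bar stands clear of both others.

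Of the members with the highest levels, F53B2.8 has no assigned function in the tables used here. It is at chrIV:12526225-12527317 of ce10, and stood at 226 FPKM in wild type (93.4 to 356), 1034 in the mutant (508.5 to 1535) and 95.4 in the line (34.3 to 156). The mutant was 4.58-fold above wild type and 10.8-fold above the line, and its interval overlapped neither. The authors' deposited table gives a q of 0.00249, the lowest value that occurs among members. Many members share it, clec-60 and spp-9 among them, so it does not rank them. Unlike most members, this gene was well expressed in every genotype.

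The lectin gene clec-60, at chrII:10480042-10481786, stood at 1.11 FPKM in wild type (0 to 2.37), 546 in the mutant (299 to 791) and 1.95 in the line (0 to 4.17). Its product belongs to the C-type lectin domain proteins, many of which are secreted by the gut during infection. C25F9.11 was next in level with 18.5 FPKM in wild type (2.39 to 34.8), 341 in the mutant (130.1 to 472) and 6.37 in the line (0.319 to 12.3). Y37H2A.14, whose locus is shared with another gene in the files, stood at 8.51 FPKM (0 to 17.7), 202 (95.7 to 307) and 2.70 (0 to 6.73) in the same order. All 3 were called in the authors' deposited table, each at q = 0.00249.

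The beta-tubulin gene tbb-6 was nearly silent outside the mutant. In C. elegans tbb-6 is known as a reporter gene for a p38 kinase response to disturbed mitochondria, and it is not one of the major tubulin genes of the larva. It stood at 0.708 FPKM in wild type (0 to 2.07), 124 in the mutant (59.1 to 189.5) and 2.14 in the line (0 to 4.22), at a locus shared with another gene (chrV:12261785-12263826). The mutant was 176-fold above wild type and 58.0-fold above the line, with intervals apart, and the authors' deposited table gives it q = 0.00893. The 3 other tbb genes listed were not called, and the most abundant, tbb-2, had 1354 FPKM in wild type (849.9 to 1857), 1862 in the mutant (1129 to 2597) and 1548 in the line (971 to 2126). In the same deposited table, the mitochondrial chaperone genes hsp-6 and hsp-60 were both called lower in the mutant. Of 5 genes tested on a list of mitochondrial stress genes, 0 were called higher and 2 lower. Any link of these levels with that of tbb-6 was not tested.

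From the hypoxia list, nhr-57 and rhy-1 met the rule. Under low oxygen the factor HIF-1 escapes hydroxylation by EGL-9 and switches on target genes. The nuclear receptor gene nhr-57 is a standard HIF-1 reporter, and rhy-1 encodes a membrane protein that holds HIF-1 activity down and is itself a HIF-1 target. The nhr-57 transcript (chrV:4131910-4134930) stood at 20.3 FPKM in wild type (4.52 to 36.1), 118 in the mutant (53.97 to 181.8) and 4.97 in the line (0.389 to 9.50). That of rhy-1, in a shared locus at chrII:9161318-9165703, stood at 9.71 (0.263 to 19.4), 103.6 (47.3 to 159.8) and 6.25 (0.408 to 12.1). In both genes the mutant interval overlapped neither other interval, and the authors' deposited table gives each a q of 0.00249. In nhr-57 the line was below wild type, the lowest log2 difference among members, although their intervals overlapped.

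Of the 8 hypoxia genes tested, 4 were called higher (50%, beside 2.93% over all genes) and 0 lower in the authors' deposited Cuffdiff table. At an unadjusted p of at most 0.05 the counts were 5 and 0, with no share over all genes beside them. Of the 4 called, nhr-57 and rhy-1 are members, which the rule picked by the same contrast. The list was chosen with earlier results of these data known, so the counts describe it and no more. The median log2 difference of mutant from wild type was 0.82 over these 8 genes and 0.13 over all 12615 tested genes. The 2 others called were egl-9, the prolyl hydroxylase that marks HIF-1 for degradation, and phy-2, a collagen prolyl hydroxylase. They missed the rule because their levels differed less: egl-9 stood at 27.8 FPKM in wild type (2.56 to 64.3), 89.8 in the mutant (40.5 to 139) and 55.5 in the line (15.4 to 95.7). The hif-1 transcript itself was not called, with 234.7 FPKM in wild type (122.2 to 347), 281 in the mutant (156 to 406) and 366 in the line (198 to 533). F22B5.4 was lower in the mutant than in wild type, at 15.6 FPKM (0 to 31.03), 5.2 (0 to 12.4) and 0.893 (0 to 2.32) in the same order. cysl-2, in a shared locus, stood at 126.3 (13.9 to 243.3), 218.8 (87.5 to 350.4) and 196.5 (73.1 to 319.8). F26A3.4 stood at 105.2 (30.1 to 180.4), 148.7 (56.6 to 240.7) and 85.6 (21.9 to 149.2). None of these was called.

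F-box proteins bring substrates to SCF ubiquitin ligases, and the fbxa family is greatly expanded in C. elegans. Of 192 fbxa genes listed, 12 reached an FPKM of 10 in at least 1 genotype, and 5 of these 12 were members, beside 1.43% of the 8464 genes of any kind that reached this level. The 12 include genes that got there through the mutant alone, so the share describes the list and no more. Of 79 fbxa genes tested, 4 were called higher (5.06%, beside 2.93% over all genes) and 1 lower in the authors' deposited table, and their median log2 difference of mutant from wild type was 0.99.

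The highest of the 5 was fbxa-60 (chrIII:944769-946281), with 3.66 FPKM in wild type (0.364 to 7.01), 22.2 in the mutant (5.64 to 38.8) and 3.83 in the line (0.273 to 7.37), the one fbxa member called, at q = 0.0103 by the authors' deposited table. Its neighbour fbxa-59, 1 of the pairs of members described further on, stood at 1.19 (0 to 2.68), 12.3 (2.24 to 22.4) and 2.33 (0 to 4.70). The 2 lowest outside the mutant were fbxa-30 and fbxa-95. The first stood at 0.0433 FPKM in wild type (0 to 0.348), 10.6 in the mutant (1.74 to 19.4) and 0.0395 in the line (0 to 0.348), and the second, in a shared locus, at 0.382 (0 to 0.657), 14.6 (2.73 to 26.3) and 0.510 (0 to 1.18). For these 2 the mutant interval was above both others and yet neither was called. fbxa-79 overlapped on both sides, at 2.61 FPKM (0 to 5.44), 11.3 (2.03 to 20.6) and 1.46 (0 to 3.31). Related fbxa copies are similar in sequence, so reads could be split among them and their levels are uncertain. Of 107 genes with BTB or MATH domains, which serve cullin-3 ubiquitin ligases, bath-36 and bath-28 were members at 11 FPKM (0 to 31.2) and 10.1 FPKM (0.124 to 20.4) in the mutant, and neither was called.

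C-type lectin genes gave 5 members out of 47 that reached 10 FPKM in some genotype, or 10.6%, beside 1.43% of genes of any kind. These 47 too include genes that reached the level through the mutant alone, so nothing is read from that share. Of 93 tested, 7 were called higher (7.53%, beside 2.93% over all genes) and 2 lower in the authors' deposited table. Their median log2 difference of mutant from wild type was 0.51. After clec-60, clec-86 had the highest mutant value, 47.2 FPKM (0.290 to 96.2), against 2.77 in wild type (0 to 14.2) and 4.37 in the line (0 to 25.2), in a shared locus and with overlapping intervals. clec-140 stood at 0.711 FPKM in wild type (0 to 1.90), 21.7 in the mutant (4.25 to 39.0) and 1.12 in the line (0 to 2.78), with the mutant apart from both but not called. clec-174 was called, at q = 0.0443 by the authors' deposited table, at 1.85 (0 to 4.2), 15 (3.45 to 26.5) and 0.766 (0 to 1.95), and clec-81 was not, at 1.3 (0 to 4.99), 10.5 (0 to 24.95) and 2.11 (0 to 11.7). On a list of 13 defence genes that depend on p38 kinase, 4 were called higher and 0 lower in the authors' deposited Cuffdiff table. The share called higher was 30.8%, beside 2.93% over all genes. At an unadjusted p of at most 0.05 the counts were 7 and 1, again with no share over all genes beside them. The list was chosen with earlier results known, so the counts only describe it. Of the 13, clec-60 alone met the rule, which picked it by the same contrast. The called gene dod-24 was highest in the line, with overlapping intervals of line and mutant. It stood at 12.9 FPKM (1.87 to 23.99), 50.49 (17.81 to 83.23) and 79.01 (24.74 to 133) in the order wild type, mutant, line. The called irg-5 and irg-6 were lower in the line than in the mutant.

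Saposin-like proteins disrupt membranes, and some kill bacteria in the worm gut, whose marker sum was lower in the mutant mainly through asp-1. Of 21 spp genes tested, 3 were called higher (14.3%, beside 2.93% over all genes) and 3 lower in the authors' deposited table. The 3 called higher were the members spp-2, spp-9 and spp-21, which the rule picked by the same contrast. The median log2 difference of mutant from wild type was −0.22 over the 21. Wild type and line are listed at 0 for spp-9 and for spp-21, whose mutant values were 11.6 FPKM (0.309 to 22.6) and 12.96 FPKM (0.341 to 21.8), so that no fold can be given. The calls of these genes thus rest on a listed 0, with mutant lower bounds near 0. spp-2 stood at 14.4 FPKM in wild type (0.952 to 27.8), 97.3 in the mutant (20.7 to 173) and 16.2 in the line (1.19 to 30.9).

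Galectins bind galactose-containing sugars. All 12 lec genes were tested, and lec-8 was the only one called higher in the authors' deposited table (q of 0.00249), while lec-10 was called lower. lec-8 stood at 31.5 FPKM in wild type (9.18 to 53.6), 154 in the mutant (69.9 to 239) and 32.5 in the line (9.38 to 55.3), with the mutant interval apart from both. lec-7, which lies beside lec-8 on the X chromosome, had one of the lowest mutant levels of the set, at 1.52 (0 to 3.39), 10.3 (0 to 21.7) and 2.36 (0 to 6.78), and all its intervals overlapped. The galectin genes lec-1, lec-2, lec-3, lec-5, lec-6 and lec-9, each over 100 FPKM in all genotypes, were not called.

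The members zig-4, acd-1 and delm-2 were chosen after their values were seen, and no list of such genes was tested. zig-4, a secreted immunoglobulin-domain protein that keeps ventral cord axons in place, stood at 9.18 FPKM in wild type (0.826 to 17.5), 73.8 in the mutant (27.7 to 119.2) and 6.08 in the line (0.516 to 11.6), and was called at q = 0.00249 by the authors' deposited table. It was the only one of 11 zig genes tested that was called higher, while zig-7 was called lower. acd-1, an acid-sensitive channel of amphid glia, stood at 3.66 FPKM (0.321 to 6.96), 33.5 (12.96 to 54.1) and 2.12 (0 to 4.77), also at q = 0.00249 by the authors' deposited table. Its neighbour delm-2, a related channel gene, stood at 0.111 FPKM (0 to 0.349), 19.5 (5.94 to 33.02) and 0.255 (0 to 0.757), apart from both but not called. Summed FPKM of 3 glial markers ran 53.97, 67.1 and 63.9 in the order wild type, mutant, line; no glial marker was called, and 0 passed an unadjusted p of 0.05 in the authors' deposited Cuffdiff test.

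The peptide genes ntc-1, which encodes the worm's relative of oxytocin and vasopressin, and nlp-4 were members that were not called. ntc-1 stood at 2.92 FPKM in wild type (0 to 5.80), 33.01 in the mutant (2.39 to 57.6) and 4.80 in the line (0 to 9.55), and nlp-4 at 1.06 (0 to 2.76), 12.7 (0.316 to 26.2) and 0.501 (0 to 1.29). Of 128 neuropeptide genes tested, 4 were called higher (3.13%) and 1 lower in the authors' deposited table, near the 2.93% called higher over all genes tested. The chemoreceptor family genes srg-31 and srw-86 were members, 2 of 40 such genes that reached 10 FPKM in some genotype. That is 5%, beside 1.43% of genes of any kind. Both reached this level through the mutant alone, so nothing is read from that share. Of 86 chemoreceptor genes tested, 5 were called higher (5.81%, beside 2.93% over all genes) and 1 lower in the authors' deposited table. srg-31 had the largest ratio to the line of all members, 1347-fold, at 0.0636 FPKM in wild type (0 to 0.276), 29.6 in the mutant (9.60 to 49.4) and 0.0220 in the line (0 to 0.207), yet the authors' deposited table gives it q = 0.470. Such a ratio rests on reference values close to 0.

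Other families gave a single member each. lips-11, of the lipase family, stood at 1.31 FPKM in wild type (0 to 2.58), 112 in the mutant (42.0 to 182) and 10.01 in the line (1.6 to 18.4), at q = 0.0127 by the authors' deposited table. It had 1 of the 3 highest log2 differences of line from wild type among members, with Y38H6A.5 and Y44A6D.1, which are listed at 0 in wild type. far-3, a fatty acid and retinol binding protein gene in a shared locus, stood at 30.2 FPKM in the mutant (0.725 to 59.96) and was not called, and the same holds for the aspartyl protease gene asp-17 at 12.3 (1.09 to 23.7), the sugar transporter gene swt-6 at 13.6 (1.97 to 25.3), the collagen gene col-133 at 33.8 (9.09 to 58.4) and scl-24 at 15.5 (2.34 to 28.4). The linker histone gene hil-7 reached 122.2 FPKM in the mutant, but with bounds of 1.72 to 612, and was not called. nspe-6, which encodes a short nematode-specific peptide, was listed at 0 in wild type and in the line and at 34.9 FPKM in the mutant (0.479 to 43.1), and was called at q = 0.00249 by the authors' deposited table.

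The following members, other than atg-13, were also chosen after their values were seen. egl-1, whose BH3-only product starts programmed cell death, stood at 1.66 FPKM in wild type (0 to 3.82), 23.2 in the mutant (3.82 to 42.4) and 1.15 in the line (0 to 2.29), and the authors' deposited table gives it q = 0.155. rab-11.2, a Rab11 GTPase of recycling endosomes, stood at 0.623 (0 to 1.6), 27.2 (5.17 to 49.2) and 1.37 (0 to 3.03), apart from both and not called. Its far more abundant paralog rab-11.1 was not called either, at 2448 FPKM (1418 to 3478), 2835 (1684 to 3988) and 1922 (1077 to 2770.2). abhd-5.2, a relative of a lipid droplet protein, and spg-20, the worm spartin gene, were called at q = 0.0255 and q = 0.0186 by the authors' deposited table, at mutant levels of 28.9 FPKM (5.92 to 51.8) and 17.9 FPKM (5.06 to 30.8). The autophagy gene atg-13 was a member at the edge of the limit, with 10.1 FPKM in wild type (0.185 to 20.3), 43 in the mutant (13.5 to 72.5) and 10.7 in the line (0.257 to 23.04).

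A carboxylesterase gene, cest-32, stood at 8.07 FPKM in wild type (1.65 to 14.5), 38.7 in the mutant (16 to 61.4) and 7.15 in the line (1.36 to 12.9), apart from both and called at q = 0.00249 by the authors' deposited table. ubc-8, of the ubiquitin-conjugating enzymes, stood at 8.38 (0.799 to 15.8), 36.3 (8.31 to 64.2) and 8.02 (0.479 to 15.5), with overlapping intervals and no call. cex-1, which encodes a calexcitin, a calcium-binding protein, had 4.67 (0 to 9.28), 31.9 (6.7 to 57.2) and 4.73 (0.172 to 9.28), and it was not called either. In each of these genes the intervals of wild type and the line overlapped. gem-4, a copine family gene, differed more between them, at 3.9 FPKM in wild type (0 to 8.28), 15.6 in the mutant (3.41 to 27.9) and 1.38 in the line (0 to 2.75), so its mutant interval was apart from the line's alone.

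Members with a sequence name only reached high levels too. F53A9.8 stood at 31.1 FPKM in wild type (3.83 to 58.2), 143 in the mutant (30.9 to 235.5) and 19.9 in the line (1.79 to 37.8), and was called at q = 0.0148 by the authors' deposited table although its intervals overlapped. B0403.3 stood at 7.94 (0.65 to 15.2), 99.1 (35.6 to 162) and 11.24 (1.17 to 21.3), apart from both. F33H12.7 had 3.92 FPKM in wild type (0 to 7.75), 60.2 in the mutant (13.9 to 106) and 1.08 in the line (0 to 2.16), also apart from both. Apart from F53A9.8 and gem-4, the members from cest-32 to F33H12.7 were chosen after their values were seen.

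Among other members without a gene name, C08E8.4 and H02F09.3 had wild-type and line values nearly as low as those of tbb-6. C08E8.4 stood at 1.62 FPKM in wild type (0 to 3.5), 103.96 in the mutant (37.2 to 169) and 1.87 in the line (0 to 3.73), and H02F09.3 at 1.62 (0 to 3.36), 53.9 (27.5 to 80.4) and 2.23 (0 to 4.61). Both were called, at q = 0.0103 and q = 0.00249 by the authors' deposited table. Y46H3A.5 stood 455-fold above wild type at 28.04 FPKM in the mutant (8.12 to 47.7) but was not called. B0563.9 stood at 331 FPKM in the mutant, above its bounds of 21.2 to 222, while wild type was listed at 0 and the line had 0.699 (0 to 1.38). F08A7.1 at 47.8 FPKM and C36A4.10 at 33.6 FPKM in the mutant, with upper bounds of 29.1 and 16.8, share that uncertainty. C36A4.10, Y82E9BR.20 and K09H11.10 were the highest of the 5 members not tested by the authors, at 33.6, 15.5 and 13.5 FPKM in the mutant.

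Between the transgenic line and wild type the rule does not set the order, though it caps both values. The line was above wild type in 63 members, below in 50 and equal in 8. The median log2 difference of the line from wild type, with 1 FPKM added to each value, was 0.04 over members and 0.04 over the 8464 genes that reached 10 FPKM in some genotype. The deposited intervals of line and wild type overlapped in all 121 members. Over 12563 genes with at least 1 FPKM in either, they were apart in 0.685%. That share is too small for 121 genes to fall clearly below it, and the rule caps both values. The overlap is therefore not read as a likeness of line and wild type. Of 74 members with at least 1 FPKM in both, the line was within 2-fold of wild type in 60, more than 2-fold above in 2 and more than 2-fold below in 12. That is 81.1% within 2-fold, beside 75.3% of 10346 other genes with both values at least 1 FPKM and no higher than the highest member. Without the minimum of 1 FPKM the order of these shares turned: the line was within 2-fold in 69 of the 105 members with wild type above 0, or 65.7%, against 83.6% of 7168 other genes with at least 10 FPKM in the mutant. The median wild-type level was 2.18 FPKM in those 105 members and 32.4 FPKM in those other genes, so the members' ratios rest on lower values.

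The lowest 3 log2 differences of the line from wild type were those of nhr-57, T26H5.9 and C25F9.11. T26H5.9 stood at 8.20 FPKM in wild type (0 to 16.13), 84.7 in the mutant (8.92 to 109.8) and 2.46 in the line (0 to 4.80). In none of the 3 were line and wild type apart.

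Coding length and position, which the rule did not use, were set beside those of all genes at this level. Of 121 members, 116 are protein-coding, 2 are pseudogenes and 3 have no entry in the Ensembl release 115 annotation. The median coding length was 214 codons over the 116 members with one, against 376 codons over 8304 genes that reached 10 FPKM in some genotype, and the median number of exons was 4 against 6. Under 100 codons were 24 members, or 20.7%, against 5.14%. Of these 24, 6 were called and 6 had a mutant value outside its bounds. A short transcript yields few fragments for a given FPKM, and the part of this in the members' ratios was not tested. Gene models in the annotation can differ from those the authors counted.

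By chromosome, 39 members or 32.2% lay on V, against 17.9% of the genes that reached 10 FPKM in some genotype, and 9 or 7.44% on I, against 17.03%. The others were 24 on II, 13 on III, 18 on IV and 18 on X. Of 103 autosomal members, 83 lay in the outer parts of their chromosome (outside the central section that takes 1 part in 3), or 80.6%, against 55.9% of autosomal genes at that level. The set high in wild type alone had 16.5% on V, 63.9% of autosomal genes in these outer parts and 18.1% under 100 codons. Its median coding length was 188 codons, shorter than the members' 214, so short coding length was not particular to the members. The set high in the line alone had 22.9%, 61.5% and 5.81%, with a median of 315 codons. These shares and medians stand side by side without a test of their difference. The share of genes with a sequence name only was 53.7% in the members, 61.2% in the set of wild type and 53.6% in the set of the line, against 33.5% of all genes at this level.

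**Figure D3:**
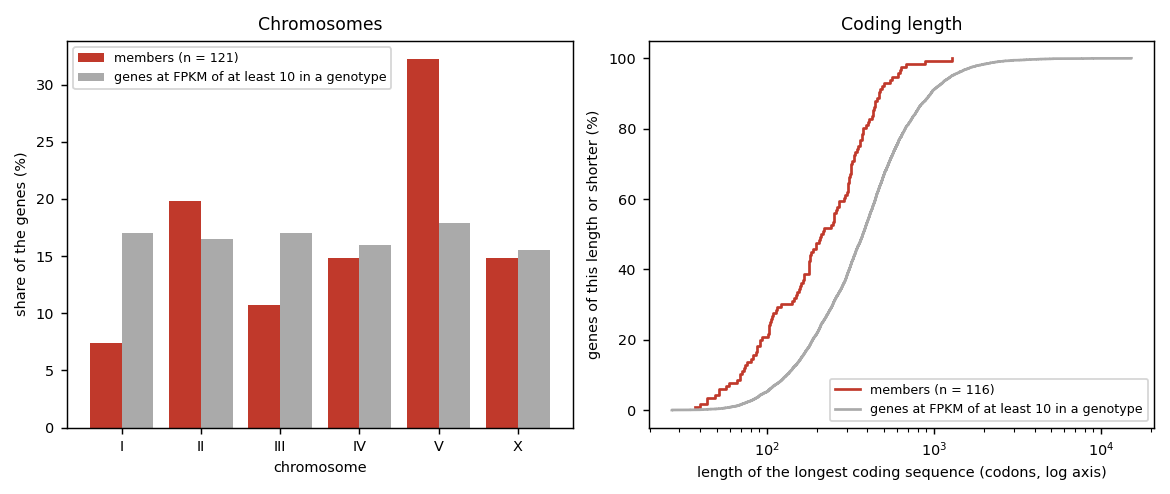
Left, the share of members (red) and of genes that reached 10 FPKM in at least 1 genotype (grey) on each chromosome. Right, the share of genes at or below each coding length in codons, on a log axis. Chromosome V holds 32.2% of members against 17.9%, and the members' curve lies to the left, with a median of 214 codons against 376.

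The 18 lists that hold a member were counted by the same exchange of genotypes, and a gene can be in more than 1 list. The fbxa family had 5 genes in the mutant set, 1 in the set of wild type (fbxa-72) and 0 in that of the line. C-type lectins had 5, 1 (clec-89) and 0, saposin-like genes 3, 0 and 0, and hypoxia genes 2, 0 and 0. In other lists the mutant set did not hold the most: BTB and MATH genes had 2, 2 and 0, nuclear hormone receptor genes 1, 1 and 2, chemoreceptor genes 2, 0 and 3, solute carrier genes 1, 0 and 3, and p38-dependent defence genes 1, 0 and 1. Neuropeptide genes had 2, 1 and 1, and galectins with glycosyl transferases 2, 0 and 1. Each of the 7 remaining lists had 1 gene in the mutant set and 0 in the others. The lists hold few genes in each set, and the differences were not tested.

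Pairs of members lay close together in places. Within 20 kb of each other were 22 members, or 18.2%, in 11 pairs, and there was no run of 3 or more. No matching share was taken for other genes, so whether 18.2% is unusual cannot be said. The pairs were acd-1 and delm-2, Y47H10A.5 and M01G12.9, F53C3.6 and F53C3.5, clec-140 and T05A7.3, Y46G5A.20 and Y46G5A.36, fbxa-59 and fbxa-60, nhr-57 and lgc-1, srw-86 and C25F9.12, C25F9.11 and C25F9.16, lec-8 and lec-7, and spp-9 and spp-21. In the mutant the partners were within 2-fold of each other in 5 pairs and further apart in 6, with ratios from 1.11 for spp-9 and spp-21 to 15 for lec-8 and lec-7. Y47H10A.5 stood at 11.8 FPKM in wild type (2.2 to 21.4), 154 in the mutant (67.6 to 239) and 8.53 in the line (0.899 to 16.08), and M01G12.9 at 3.26 (0.163 to 6.36), 22.5 (7.67 to 37.4) and 2.02 (0 to 4.24), both called at q = 0.00249 by the authors' deposited table. lgc-1, of the ligand-gated ion channel family, lies beside nhr-57 and had 1.96 FPKM in wild type (0 to 4.11), 10.3 in the mutant (1.49 to 19.1) and 0.454 in the line (0 to 1.31), and it was not called. Like nhr-57, it was lower in the line than in wild type, with overlapping intervals.

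**Figure D4:**
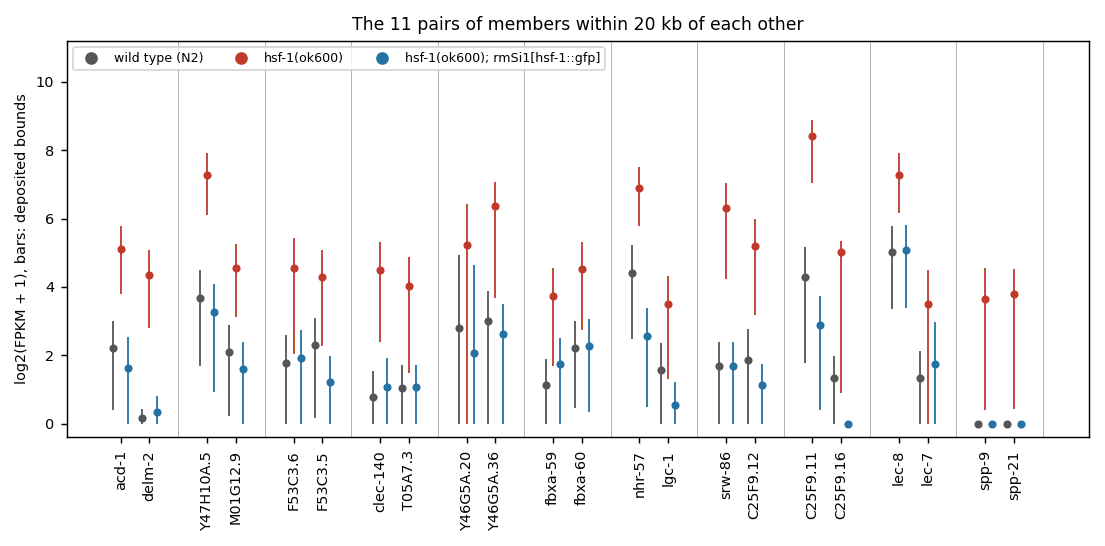
The 11 pairs of members within 20 kb of each other, as log2(FPKM + 1), with points for the 3 genotypes and bars for the deposited bounds. The mutant point is the highest in each gene by the rule, and partners such as nhr-57 and lgc-1, at 118 and 10.3 FPKM in the mutant, differ in level.

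Of these pairs, 2 lie in 1 stretch of chromosome V, chosen after its values were seen, which holds the 15 genes whose sequence names start with C25F9 over 42.2 kb. In 10 of the 15 the mutant had the highest FPKM of the 3 genotypes, which the rule fixes for the 4 members among them. The mutant was not highest in C25F9.4, C25F9.6, C25F9.9 and C25F9.13, and C25F9.8 was listed at 0 throughout. Of the 15, 2 were called higher, srw-86 and C25F9.11, both members, beside 2.93% called over all genes tested. How often the mutant stood highest over all genes was not counted, so nothing is read from the 10. The receptor family gene srw-86 (chrV:19400113-19400686) stood at 2.21 FPKM in wild type (0 to 4.23), 77.7 in the mutant (17.9 to 132) and 2.21 in the line (0 to 4.23), at q = 0.0343 by the authors' deposited table. Its annotated coding length is 91 codons against 315 in srw-85 nearby. C25F9.12 stood at 2.65 (0 to 5.79), 35.4 (8.02 to 62.1) and 1.18 (0 to 2.38), and C25F9.16 at 1.54 (0 to 2.96), 31.6 (0.844 to 39.3) and listed at 0. srw-85 was also highest in the mutant but differed from the members, because the line alone was low. It stood at 39.4 FPKM in wild type (7.78 to 71.0), 78.2 in the mutant (30.4 to 126) and 0.292 in the line (0 to 0.870). The line and wild-type intervals of srw-85 were apart.

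**Figure D5:**
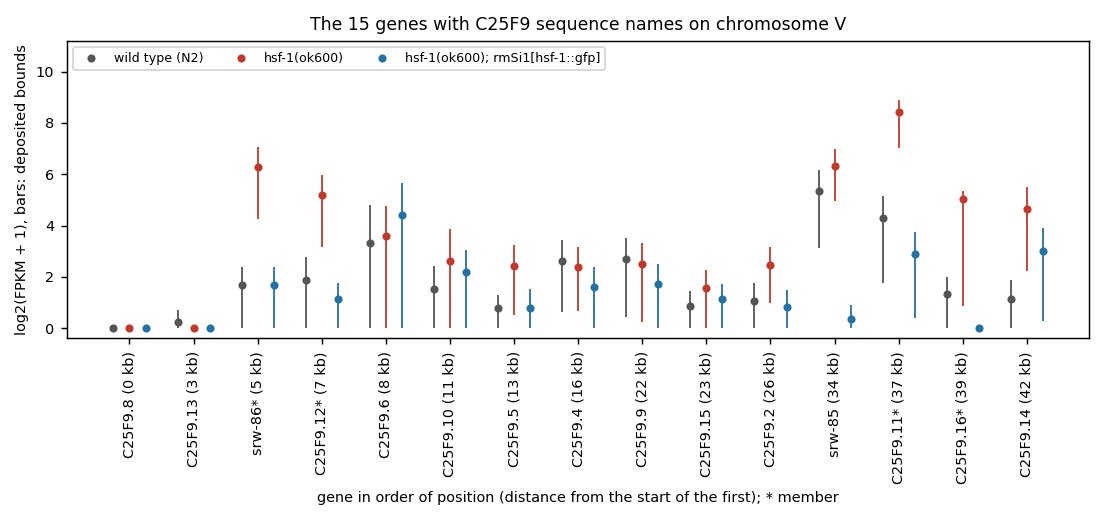
FPKM of the 15 genes with C25F9 names in their order on chromosome V, as log2(FPKM + 1), with bars for the deposited bounds and the distance from the first start in kb. The 4 members (asterisks) stand out in the mutant, between 31.6 and 341 FPKM, while srw-85 is low in the transgenic line, at 0.292 FPKM.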

How the data were processed

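RNA of whole L2 larvae was sequenced in 9 libraries, amplified with a Nugen Ovation kit per the labels' protocols. The authors' FPKM come from TopHat2 and Cuffdiff on ce10, per the submitters' processing notes, which name no versions. Annotation and strand setting of counting: not given in the sources used here. In the deposited tables each genotype has 1 FPKM with bounds, and the authors' p-values and q-values cover mutant against wild type. Planned values per library were not in the tables, so no model was fitted.

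The members, and the gene lists, were chosen with earlier results of these data known. Named genes were the 12 highest in the mutant, the 12 lowest in the larger ratio at 20 FPKM or more, up to 6 members per list, those at the limits, the 3 highest not tested, and the 3 extremes of line against wild type. Others are marked. Intervals were compared among genes with at least 1 FPKM. Log2 differences used 1 added FPKM, which understates changes of low genes. Shared loci cannot be given separate coordinates, and starts were converted by adding 1, after which 2211 genes matched the span in the annotation, against 216 without. Symbols came from the RefSeq gene table of WBcel235, which matched 118 of 121 members, and lengths from Ensembl release 115. The central section of a chromosome was 1 of 3 equal sections of the length up to its last gene end. The rule was tested on simulated data. Python 3.11.15, pandas 2.3.3, numpy 2.4.6 and matplotlib 3.10.9 were used. Alternatives were other limits, minimums, q thresholds and pseudocounts, centring of genotypes, and subsets of members. Promoter motifs and sequences were not analysed here.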

Additional observations from a re-analysis of the deposited data

How the results depend on the processing

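The number of members depended on the limits of the rule. With the ratio limit at 0.5 there were 489, with a minimum of 5 FPKM 188, and with a minimum of 20 FPKM 69, against 121. A limit of 0.2, any estimate status, a pseudocount of 1 in the ratio, centred genotypes, and members in a locus of their own gave 91 to 130 genes. Chosen after seeing the data, leaving out values outside their bounds gave 112, at least 300 exonic bases 111, and 131 came from the FPKM deposited with the test. At a deposited q of at most 0.01, 24 members were called instead of 44. Under the subsets run, counts of members with intervals apart stayed within 1.5 times. The median difference of the line from wild type stayed within 0.1 on the log2 scale (a limit chosen here). Shares by chromosome, chromosome part and coding length stayed within their exact (Clopper-Pearson) 95% intervals in these subsets. Each subset holds most of the same members, so a share could hardly leave its interval, and nothing is concluded from that check. The intervals also treat members as independent, although some are neighbours. Centring moved the genotypes by −0.02 and 0.05 on the log2 scale. No paired analysis was possible because the tables hold 1 value per genotype. For the same reason no replicate could be left out. The planned check of promoter windows was not run, since no promoter sequence was used here. Depth is unknown from FPKM, so the precision of values near 0 is known only through the deposited bounds.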
